A study of Mus musculus with 30 samples.

Results

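BM of *Ob/Ob* mice treated with a GLP-1R agonist alone was compared with BM of *Ob/Ob* mice given the agonist and an anti-IL-17A antibody together (Combo), which asks what the antibody adds once the agonist is present. The comparison holds 6 of the 30 libraries of the series, 3 per group, chosen by their labels and not by any measured value, and all 13353 genes of the BM count table were tested. Recipients in both groups were leptin-deficient *Ob/Ob* mice, labelled C57BL/6J, that had been irradiated with 700 and 400 cGy and transplanted with BM cells from *Shp2E76K/+;LysM-Cre+* donors mixed with an equal number of competitor cells from Boy/J mice. From 8 weeks after transplantation they received beinaglutide, the GLP-1R agonist, at 3 mg/kg s.c. for 30 days, without or with the antibody at 200 µg per mouse i.p., 3 times weekly. The labels give an age of 12 to 14 weeks, which is younger than the schedule in the study's methods allows at sampling. They also give a mix of males and females matched between groups, place all libraries in the same batch, and describe whole BM cells of 3 biological replicates per group. WT recipients and *Ob/Ob* mice given vehicle (Vehicle) or the antibody alone serve below as reference levels. These mice were irradiated with the same doses and, by the study's methods, transplanted with the same donor and competitor cells. Vehicle and the antibody alone were also given from 8 weeks for 30 days, the antibody at the dose and frequency above. For WT recipients no treatment dose or duration is listed. As a model, LysM-Cre acts mainly in myeloid cells, and the RNA mixes mutant donor cells, competitor cells and whatever host cells persist, so no count can be assigned to mutant cells.

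IL-17A is a cytokine made mainly by Th17 cells, γδ T cells and innate lymphoid cells. It binds a receptor of IL-17RA and IL-17RC on stromal, epithelial and myeloid cells and is known for inducing chemokines, antimicrobial proteins and the growth factor G-CSF, by which it promotes granulopoiesis. Beinaglutide is a recombinant form of the incretin GLP-1, which raises cAMP through GLP-1R, increases insulin secretion and lowers food intake.

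The BM libraries with the agonist alone held 31086184 to 36181282 counts each and those of Combo 35880000 to 36909493, and all values below are counts scaled to a common effective library size (normalized counts). The biological coefficient of variation was 3.51% over the BM libraries. The labels give 3 mice per group, but whether each library holds a separate mouse was not tested, so this spread may be technical. Padj, the Benjamini-Hochberg adjusted p-value of edgeR's quasi-likelihood test, measures only the spread between these libraries. The n of each SE below counts libraries. One WT library differed from the other WT libraries far more than replicates did in any other BM group, and without it the comparison called 1774 genes in place of 1757. Granule genes that define BM, such as *Mpo*, were abundant in all 6 libraries.

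The groups differed in sex-linked RNA, although the labels describe groups matched for sex. *Xist*, which coats and silences an X chromosome in female cells, had 5.62, 0.876 and 0 normalized counts with the agonist and 3657, 3644 and 3528 with Combo. *Ddx3y*, a Y-linked helicase gene, had 1802, 1920 and 2015 normalized counts with the agonist and 147, 163 and 177 with Combo. The other Y-linked genes tested moved in the same direction, with log2 fold changes of -3.81 for *Eif2s3y*, -3.59 for *Uty* and -3.25 for *Kdm5d*. *Xist* was near 0 with the agonist alone, Y-linked RNA was low but not at 0 with Combo, and the groups did not overlap for any of these genes. *Kdm5c*, *Kdm6a*, *Eif2s3x* and *Ddx3x* are X-linked genes that escape inactivation and were chosen after their values were seen. Their log2 fold changes were 1.01, 0.14, 0.34 and 0.29. Without agonist replicate 1, *Kdm5c* was just under 1. Sex of the cells and addition of the antibody cannot be told apart in any result below. Of the X-linked genes 11.3% were called and of the autosomal genes 13.2%, and the test on autosomal genes alone gave 1638 called genes.

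With Combo, 613 genes were called higher and 1144 lower than with the agonist alone, 13.2% of the genes tested (4.59% higher and 8.57% lower). A call required Padj below 0.05 and a change of more than 1 on the log2 scale in either direction. Without the fold limit 36.1% of genes passed as higher and 35.3% as lower, and the libraries of the groups did not overlap for 74.8% of genes, so passing alone distinguishes few genes and size is given throughout. The median log2 fold change over all genes was -0.0134. Only 244 called genes changed by more than 2 on the log2 scale, 90 upward and 154 downward. Granulocyte and glycolysis genes were at the high end of the gene lists examined, sex-linked genes aside, and macrophage, T cell, platelet, adipocyte and erythroid genes at the low end. In whole BM, fewer cells of a type and less RNA per cell cannot be told apart.

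**Figure D1:**
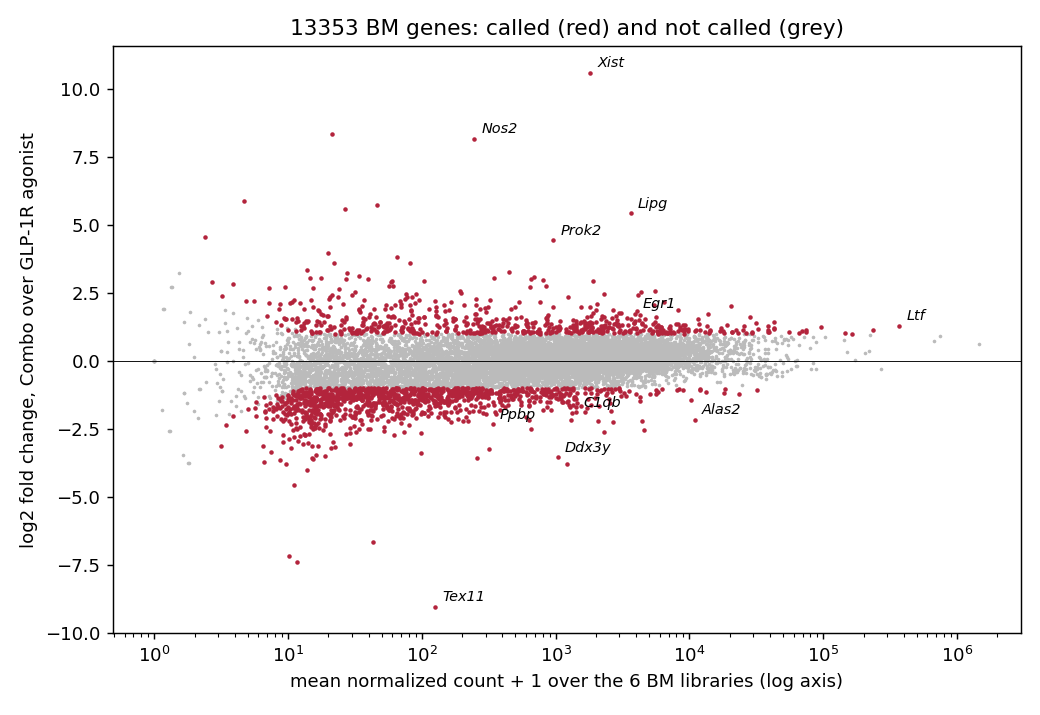
Log2 fold change of each of the 13353 BM genes (Combo over GLP-1R agonist, vertical axis) against its mean normalized count over the 6 libraries plus 1 (log axis), with called genes in red. Most called genes lie within 2 log2 units of 0, and *Xist* (10.60) and *Tex11* (-9.04) lie at the edges, as fitted values that depend on the prior count, since 1 of the 2 groups was near 0 for each.

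Granulocyte genes rose. Of 10 markers of immature granulocytes, 5 were called higher and 0 lower (median log2 fold change 1.00), and all 10 passed Padj as higher. *Prtn3*, encoding the granule protease proteinase 3, had 26360, 26131 and 26400 normalized counts with the agonist and 58658, 59274 and 59186 with Combo, a 2.25-fold rise (log2 fold change 1.17 ± 0.02 (SE, n = 3 per group), Padj = 1.1e-33). *Mpo*, encoding myeloperoxidase, had 95348, 94647 and 95224 normalized counts with the agonist and 191398, 194454 and 195405 with Combo. Both genes were higher in each Combo library than in any library with the agonist alone. *Ctsg*, encoding cathepsin G, rose 2.19-fold and *Serpinb1a*, an inhibitor of these proteases, 2.65-fold. *Elane*, encoding neutrophil elastase, had a log2 fold change of 0.76 and was under the fold limit, as was *Gfi1* (0.32), a transcription factor of granulocyte commitment.

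Markers of late neutrophils followed the same direction, with 6 of 14 called higher, 0 lower and all 14 passing Padj as higher (median 0.90). *Ltf*, encoding the secondary-granule protein lactoferrin, had 213127, 213712 and 212701 normalized counts with the agonist and 520280, 523984 and 528196 with Combo (log2 fold change 1.30 ± 0.02 (SE, n = 3 per group), Padj = 2.5e-36). *Cxcr2*, the chemokine receptor by which neutrophils leave BM, had 10809, 11126 and 11207 normalized counts with the agonist and 27331, 27426 and 27205 with Combo. The 3 libraries of each group lay close together and far from those of the other group. *Mmp8*, encoding neutrophil collagenase, rose 2.46-fold and *Cd177*, a neutrophil surface glycoprotein, 2.38-fold. The abundant calprotectin genes *S100a8* and *S100a9* had smaller values, log2 fold changes of 0.74 and 0.62, and *Camp*, encoding cathelicidin, 0.29. The summed level of the list was 2837430 to 2861300 normalized counts with the agonist, 4821900 to 4878400 with Combo and 4247060 to 4308830 with Vehicle.

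Other myeloid lists moved less. Among 13 markers of mast cells, basophils and eosinophils 3 were called higher and 0 lower (median 0.29). *Ear1*, an eosinophil-associated ribonuclease gene of a family of close paralogs whose reads can be divided between copies, rose 4.52-fold, and *Siglecf*, an eosinophil surface lectin, 2.59-fold. Of 14 monocyte markers 2 were called higher and 0 lower (median 0.40). One of these, *Lyz2*, encoding lysozyme, lay on the fold limit, with 109169, 109856 and 109086 normalized counts with the agonist and 220700, 219968 and 217172 with Combo (log2 fold change 1.00). Its call was lost with DESeq2, with DESeq2's size factors in edgeR, with the 6 libraries alone, on autosomal genes alone, with at least 10 counts in every library and without Combo replicate 1, each at a log2 fold change of 0.98 to 1.00.

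Erythroid genes fell. Of 11 erythroid markers 7 were called lower, 0 were called higher and all 11 passed Padj as lower (median -1.07). Another 6 listed genes were not analysed here. *Alas2*, encoding the first enzyme of heme synthesis in erythroid cells, had 18064, 17801 and 18113 normalized counts with the agonist and 4001, 4058 and 3981 with Combo, 4.48-fold lower with Combo (log2 fold change -2.16 ± 0.03 (SE, n = 3 per group), Padj = 4.0e-41). *Epor*, the erythropoietin receptor gene, had 2114, 1978 and 2028 normalized counts with the agonist and 754, 813 and 756 with Combo. *Car1*, encoding carbonic anhydrase 1, was 2.32-fold lower. *Gata1* and *Klf1*, transcription factors of erythropoiesis, had log2 fold changes of -0.95 and -0.70, under the fold limit. The summed erythroid level was 169691 to 171681 normalized counts with the agonist, 80493 to 80614 with Combo, 70415 to 71232 with Vehicle, 113294 to 116039 with the antibody alone and 86944 to 90505 in WT recipients. It was thus higher with the agonist alone than in any other BM group.

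Megakaryocyte and platelet genes fell as well, with 8 of 13 called lower and 0 higher (median -1.20). *Ppbp*, encoding a platelet chemokine precursor, had 536, 603 and 549.8 normalized counts with the agonist and 112, 107 and 116 with Combo, 5.04-fold lower with Combo. *Clec1b*, the platelet receptor CLEC-2, fell 3.98-fold, and *Tubb1*, the platelet β-tubulin gene, 3.63-fold. *Pf4*, encoding platelet factor 4, had a log2 fold change of -1.65.

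Upstream sequences are printed for the called erythroid genes with an entry in the RefSeq promoter table (GRCm38.p6) and for the 4 late neutrophil genes above, since each set moved together. Each is the 150 bases before the annotated start, 5′ to 3′ on the gene's strand. Capitals mark GATA motifs (AGATAA or TGATAA, either strand) in the erythroid genes and the C/EBP motif TTGCNNAA, either strand, in the neutrophil genes. GATA1 and C/EBP proteins are known regulators of erythroid and granulocytic genes.
Alas2: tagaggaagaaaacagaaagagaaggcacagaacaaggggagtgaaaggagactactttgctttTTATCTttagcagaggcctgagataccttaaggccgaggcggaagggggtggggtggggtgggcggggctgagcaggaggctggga
Epor: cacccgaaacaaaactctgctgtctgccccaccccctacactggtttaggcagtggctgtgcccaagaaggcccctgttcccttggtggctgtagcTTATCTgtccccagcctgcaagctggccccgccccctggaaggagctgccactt
Rhag: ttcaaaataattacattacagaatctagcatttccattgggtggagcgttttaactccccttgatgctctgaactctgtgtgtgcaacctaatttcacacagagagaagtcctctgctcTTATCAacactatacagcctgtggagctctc
Hemgn: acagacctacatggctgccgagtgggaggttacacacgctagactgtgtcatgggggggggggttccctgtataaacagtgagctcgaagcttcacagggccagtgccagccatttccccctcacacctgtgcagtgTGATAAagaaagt
Ltf: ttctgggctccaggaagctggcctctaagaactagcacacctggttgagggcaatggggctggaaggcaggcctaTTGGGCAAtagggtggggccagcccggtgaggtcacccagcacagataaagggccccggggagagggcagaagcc
Cxcr2: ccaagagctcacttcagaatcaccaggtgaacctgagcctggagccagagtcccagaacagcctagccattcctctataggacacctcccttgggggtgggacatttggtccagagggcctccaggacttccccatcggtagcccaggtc
Mmp8: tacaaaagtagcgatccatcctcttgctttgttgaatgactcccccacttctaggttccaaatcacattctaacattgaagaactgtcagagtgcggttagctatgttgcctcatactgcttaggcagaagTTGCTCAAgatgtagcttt
Cd177: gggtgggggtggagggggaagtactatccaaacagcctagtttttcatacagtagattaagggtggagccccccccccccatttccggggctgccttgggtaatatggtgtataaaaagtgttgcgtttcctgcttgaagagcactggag
The windows lie at chrX:150547267-150547416 (plus strand), chr9:21963577-21963726 (minus), chr17:40810999-40811148 (plus), chr4:46404184-46404333 (minus), chr9:111019142-111019291 (plus), chr1:74153844-74153993 (plus), chr9:7558279-7558428 (plus) and chr7:24760312-24760461 (minus). Within 250 bases upstream, a GATA motif was present for 5 of 7 erythroid genes with an entry and for 16.6% of 32851 promoters in the table. The C/EBP motif was present for 5 of 12 late neutrophil genes and for 9.56% of all promoters. Megakaryocyte and platelet genes had a GATA motif in 4 of 11, and immature granulocyte genes the C/EBP motif in 2 of 7. A listed gene counted if any of its promoters matched, whereas the shares of all promoters count each promoter, so these are unlike measures. A match describes the letters and does not show binding, and binding was not measured.

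Apart from the sex-linked genes, the list with the lowest median was that of resident macrophages, with 10 of 13 markers called lower and 0 higher (median -1.64). *C1qb* and *C1qc*, encoding chains of complement C1q, were 3.69-fold and 3.67-fold lower. *C1qb* had 2215, 2260 and 2205 normalized counts with the agonist and 612, 608 and 593 with Combo (log2 fold change -1.88 ± 0.05 (SE, n = 3 per group), Padj = 8.4e-31). *Cd5l*, encoding an apoptosis inhibitor of macrophages, had 2085, 2155 and 2081 normalized counts with the agonist and 596, 533 and 560.2 with Combo. No Combo library reached the level of any library with the agonist alone for these genes. *Spic*, a transcription factor of iron-recycling macrophages, had a log2 fold change of -1.82, and *Adgre1*, encoding the macrophage antigen F4/80, only -0.21. *Hmox1*, the heme oxygenase gene, fell 2.35-fold. *Mmp12*, encoding macrophage elastase, had 173, 160.4 and 173 normalized counts with the agonist and 31.9, 15.9 and 32.3 with Combo.

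T cell genes fell nearly as a block, 12 of 13 called lower and 0 higher (median -1.24). *Cd3d*, encoding a chain of the T cell receptor complex, had 578, 617 and 599 normalized counts with the agonist and 218, 174 and 189.9 with Combo. *Cd8a*, the CD8 α chain gene, had 607, 624 and 559 normalized counts with the agonist and 194, 177 and 142 with Combo. Both T cell genes were lower in each Combo library. *Cd4* had a log2 fold change of -1.24. Of 12 NK cell and cytotoxic genes 5 were called lower and 1 higher, among them *Il2rb* (-1.29), a receptor chain for IL-2 and IL-15, and *Klrb1c* (-1.26), encoding NK1.1, while *Nkg7* (1.08) was the one called higher. Plasma cell genes were lower, 3 of 7 called, with *Jchain*, which joins polymeric immunoglobulin, at 18400, 18331 and 17946 normalized counts with the agonist and 8314, 7901 and 8505 with Combo. *Sdc1*, encoding the plasma cell antigen CD138, fell 2.58-fold.

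Early B cell genes did not move as one. Of 14, 3 were called higher and 1 lower (median 0.52). *Vpreb3* rose 2.61-fold, and *Dntt* and *Rag1*, which act in immunoglobulin gene rearrangement, rose 2.53-fold and 2.16-fold. *Il7r*, the IL-7 receptor gene, which T cells also express, fell 2.76-fold. All 10 MHC class II genes passed Padj as lower, but only 2 of 10 passed the fold limit (median -0.74). *H2-Aa*, an MHC class II α chain gene, had 4128, 3846 and 3988 normalized counts with the agonist and 1986, 1938 and 1972 with Combo, and *Ciita*, the class II transactivator gene, had 233, 290.1 and 223 normalized counts with the agonist and 138, 134 and 100.2 with Combo. *H2-Aa* was under the limit without agonist replicate 1 (-0.99), and *Ciita* without agonist replicate 2 (-0.88) or Combo replicate 3 (-0.87). Among 13 immune checkpoint genes 5 were called lower and 0 higher. *Ctla4* had 143, 131 and 122 normalized counts with the agonist and 38.1, 20.1 and 17.7 with Combo, and *Pdcd1*, encoding PD-1, fell 3.42-fold. Both are expressed mainly by T cells, whose markers fell too, and the part of that in these values was not tested. *Cd274*, encoding PD-L1, had a log2 fold change of -0.98 and *Cd96* of -0.77, not called. They passed the limit without Combo replicate 2 (-1.07) and without agonist replicate 3 (-1.001), respectively.

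A few genes of the BM niche fell. *Cxcl12*, the chemokine that retains hematopoietic cells in BM, had 4021, 4164 and 3911 normalized counts with the agonist and 1078, 1107 and 1183 with Combo, a 3.59-fold difference (log2 fold change -1.85 ± 0.04 (SE, n = 3 per group), Padj = 3.0e-32). *Lepr*, the leptin receptor gene and a marker of BM stromal cells, fell 2.31-fold. Of 14 stromal and endothelial markers 3 were called lower and 0 higher, and the collagen gene *Col1a1* (-0.03) did not pass Padj. Among 8 adipocyte markers 4 were called lower, with *Fabp4*, a fatty-acid-binding protein gene that macrophages also express, at 1148, 1108 and 1067 normalized counts with the agonist and 228, 198 and 163 with Combo. *Adipoq*, encoding adiponectin, fell 3.2-fold. Vehicle means were 829 for *Cxcl12*, 33.0 for *Lepr*, 233 for *Fabp4* and 68.3 for *Adipoq*. None of these genes was called in Combo over Vehicle. How much marrow fat and stroma was collected with the cells is not given in the sources used here.

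**Figure D2:**
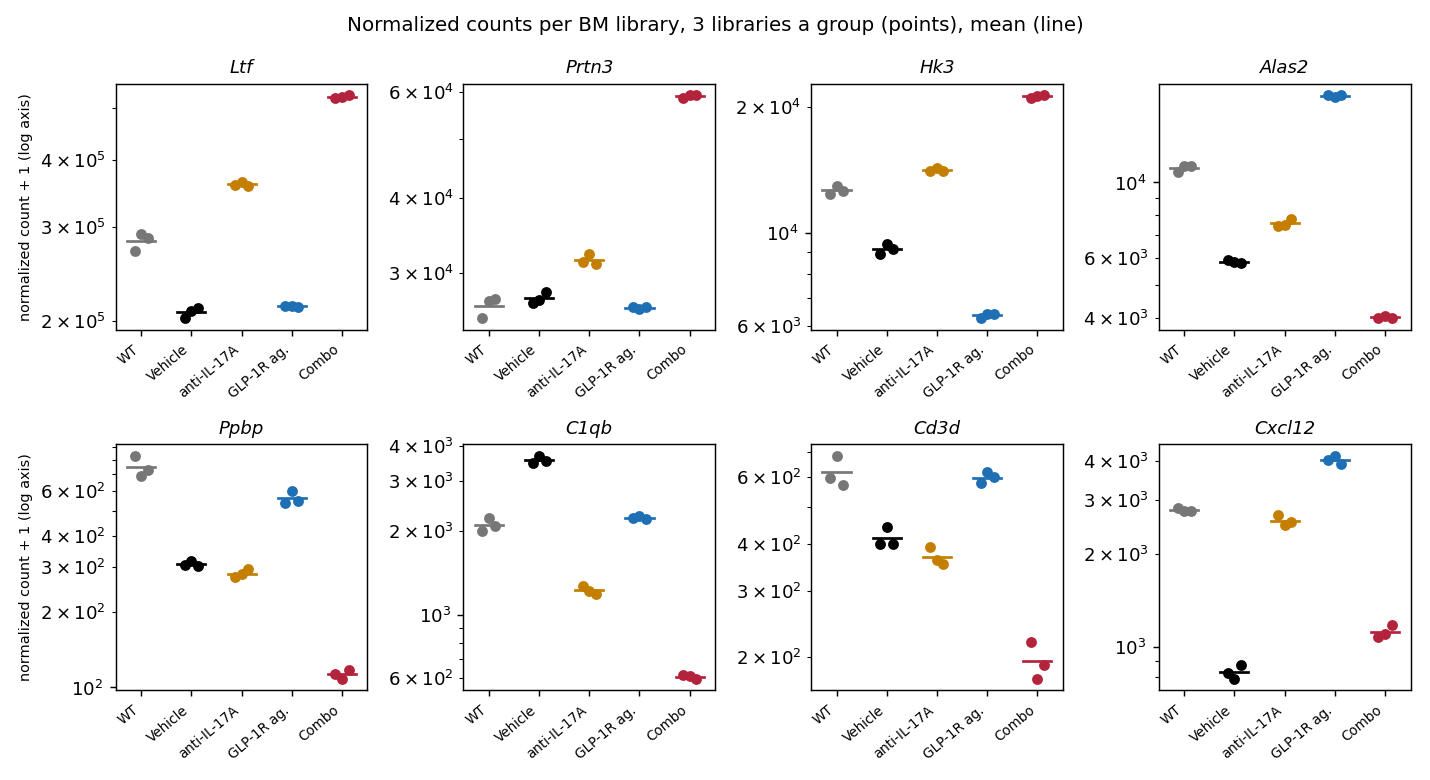
Normalized counts plus 1 (log axis) of 8 genes in each BM library of the 5 groups, with a line at the mean of 3 libraries. *Ltf*, *Prtn3* and *Hk3* were higher and *Alas2*, *Ppbp*, *C1qb*, *Cd3d* and *Cxcl12* lower in every Combo library than in every library with the agonist alone.

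**Figure D3:**
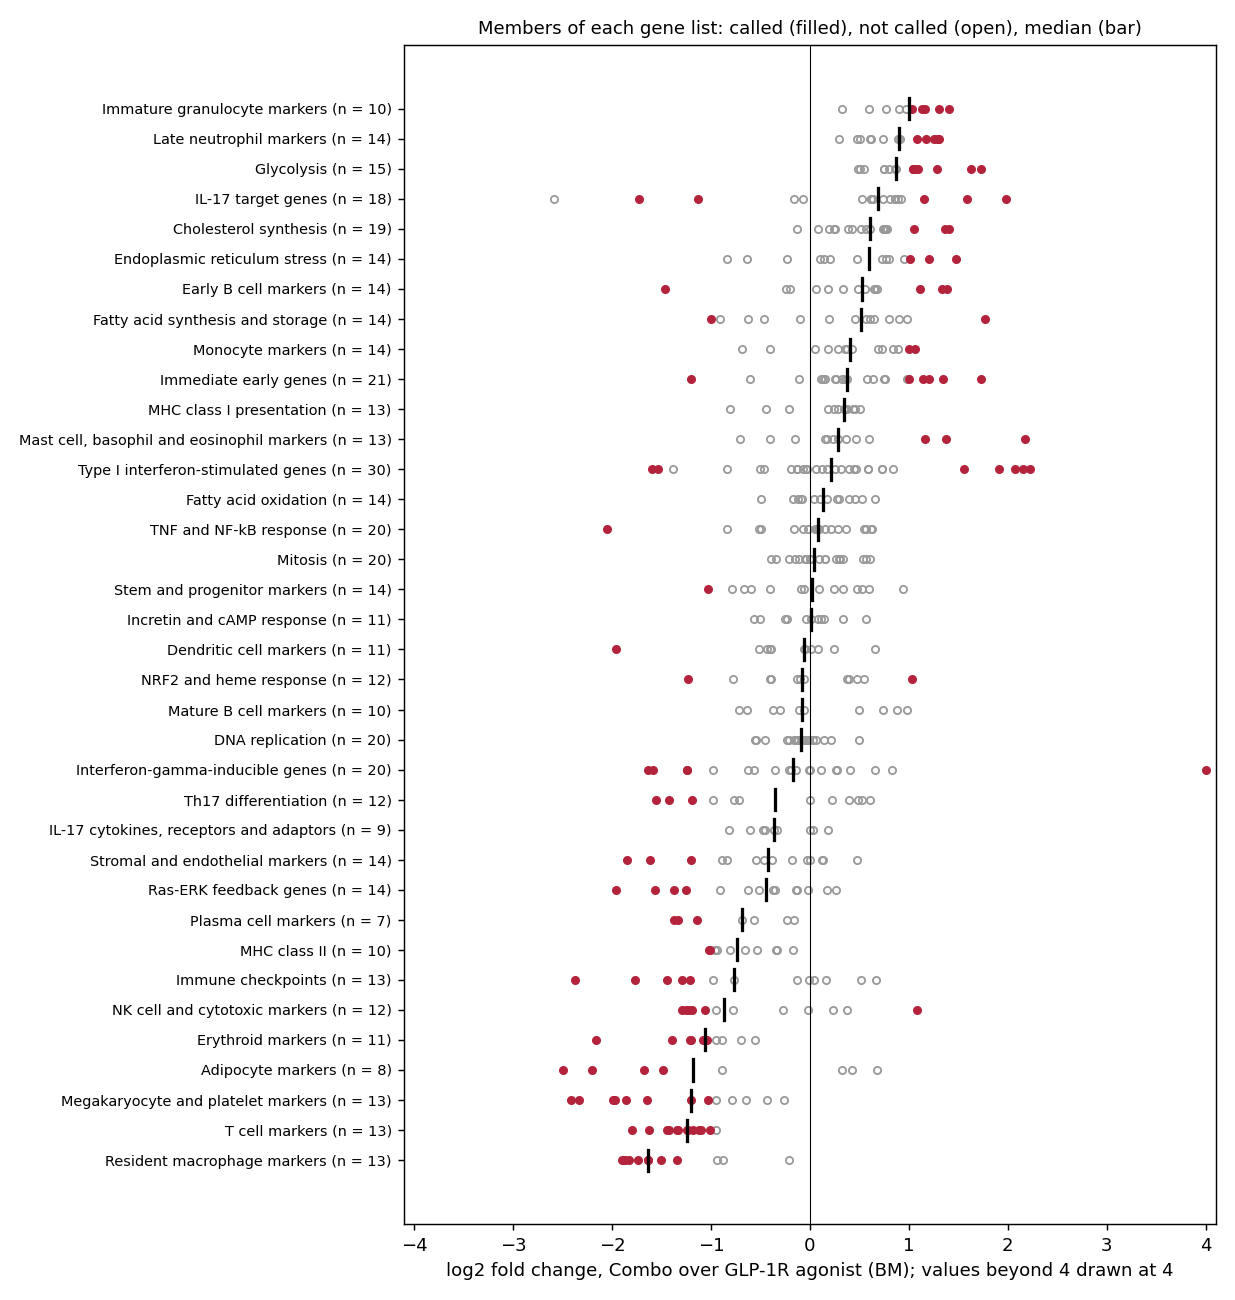
Log2 fold change (Combo over GLP-1R agonist, BM) of each tested member of the gene lists other than the sex-linked genes, called members filled, others open, with a bar at the median. Medians of these lists run from -1.64 for resident macrophage markers to 1.00 for immature granulocyte markers.

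For the antibody's target, RNA of the ligand was at or near 0. *Il17a* had 0 counts in all 6 libraries, so no fold change exists, and a normalized count of 0 in 3 libraries does not show that the protein was absent. Vehicle averaged 25.5 normalized counts. *Il17f*, the related ligand gene, had 6.56, 8.76 and 3.07 normalized counts with the agonist and 8.23, 3.18 and 2.09 with Combo, which did not differ detectably (Padj = 0.54). The receptor gene *Il17ra* had 12874, 12498 and 12462 normalized counts with the agonist and 14286, 14301 and 14401 with Combo, a log2 fold change of 0.18. *Il17rc* and *Glp1r* were not analysed here. None of 9 genes of the list of IL-17 cytokines, receptors and adaptors was called in either direction, while 1 passed Padj as higher and 4 as lower. At an unadjusted p below 0.05 in edgeR 5 of them differed, and DESeq2 called 0. Over all genes 71.4% passed Padj below 0.05 without the fold limit, so the count of 5 does not set this list apart.

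Genes known as IL-17 targets moved in both directions. Of 18, 3 were called higher and 2 lower (median 0.69). *Lcn2*, encoding the antimicrobial protein lipocalin 2 of neutrophil granules, had 148569, 144423 and 147542 normalized counts with the agonist and 327213, 322857 and 327550 with Combo. *Saa3*, an acute-phase gene, had 46.9, 45.6 and 63.4 normalized counts with the agonist and 207, 189.5 and 213 with Combo, against a mean of 73246 with Vehicle. *Ptgs2*, encoding cyclooxygenase 2, rose 3.01-fold, and its libraries did not overlap. *Il6* had 89.1, 46.5 and 67.4 normalized counts with the agonist and 17.5, 16.9 and 26.1 with Combo and fell 3.32-fold. *Ccl2*, a monocyte chemokine gene, had a log2 fold change of 0.92 and was not called, although it passed the fold limit without Combo replicate 1 (1.02) or agonist replicate 2 (1.13). Several members, among them *S100a8*, *S100a9*, *Mmp9* and *Lcn2*, are neutrophil products and moved with the granulocyte lists. Of 12 Th17 genes 3 were called lower and 0 higher, with *Rora* (-1.55), a transcription factor of the lineage, and *Il1r1* (-1.43), the IL-1 receptor gene, among them.

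*Tnf*, encoding the inflammatory cytokine TNF, had 1083, 1054 and 1014 normalized counts with the agonist and 1092, 1089 and 1173 with Combo and did not pass (Padj = 0.12). *Il1b*, a gene of monocytes and neutrophils, had 1807, 1794 and 1872 normalized counts with the agonist and 1312, 1277 and 1305 with Combo, lower by a log2 fold change of -0.49 and under the limit. Of 20 TNF and NF-κB genes 1, *Il1a* (-2.05), was called lower and 0 higher (median 0.08), and the mean of *Il1a* was under 50 normalized counts. *Ifng*, the interferon-γ gene, which shares 25.9% of its exon length with another gene, was scarce, with 9.37, 8.76 and 12.3 normalized counts with the agonist and 5.14, 0 and 7.3 with Combo, and its call (Padj = 0.04) was lost without Combo replicate 2 (Padj = 0.23), agonist replicate 1 (0.055) or agonist replicate 3 (0.11).

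Interferon-stimulated genes diverged within the list. Of 30, 5 were called higher and 2 lower (median 0.22). Of those called higher, *Oas1a*, *Oas2*, *Oas3* and *Oasl2* belong to the 2′-5′-oligoadenylate synthetase family, sensors of double-stranded RNA, and the other was *Rtp4* (1.55). *Oasl1* (-0.13), of the same family, did not pass Padj. *Oas3* had 754, 780.1 and 796 normalized counts with the agonist and 3224, 3352 and 3259 with Combo. *Oas1a* rose 4.68-fold and *Oasl2* 4.44-fold. *Mx2* (-1.60) and *Rsad2* (-1.53), antiviral effectors, were the 2 called lower, and *Isg15* (-0.47) stayed under the limit. *Oas3* was far lower in both groups than with Vehicle, which averaged 17066 normalized counts. Of 20 interferon-γ-inducible genes 4 were called lower and 1 higher, with *Gbp4*, a guanylate-binding GTPase gene, falling 3.12-fold. The one called higher was *Nos2*, encoding inducible nitric oxide synthase, at 3.75, 0.876 and 0 normalized counts with the agonist and 443, 495 and 525 with Combo. Its log2 fold change of 8.17 rests on 5 counts in all with the agonist and depends on the prior count of the fit. *B2m*, the MHC class I light chain gene, had a log2 fold change of 0.25.

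Glycolysis genes rose together. Of 15, 7 were called higher and 0 lower, and all 15 passed Padj as higher (median 0.87). Summed, the list had 221564 to 222984 normalized counts with the agonist, 422941 to 425956 with Combo and 359379 to 369664 with Vehicle. *Hk3*, the hexokinase gene of myeloid cells, had 6265, 6424 and 6428 normalized counts with the agonist and 21043, 21174 and 21363 with Combo (log2 fold change 1.73 ± 0.02 (SE, n = 3 per group), Padj = 6.5e-39). *Aldoa*, encoding aldolase, had 15462, 14680 and 14915 normalized counts with the agonist and 36511, 36673 and 36433 with Combo, and *Pkm*, encoding pyruvate kinase, rose 2.14-fold. Groups did not overlap for these enzymes. *Ldha*, encoding lactate dehydrogenase, had a log2 fold change of 0.75, under the limit. *Hk3* is a neutrophil-enriched gene, and the granulocyte lists rose alongside, whose part in these values was not tested.

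Cholesterol synthesis genes also tended upward, with 17 of 19 passing Padj as higher, 3 called higher and 0 lower (median 0.61). *Fdps*, encoding farnesyl diphosphate synthase, had 1667, 1685 and 1581 normalized counts with the agonist and 4147, 4205 and 4401 with Combo. Its exons share 26.7% of their length with another gene, so some reads may count for both. *Dgat2*, which completes triglyceride synthesis, rose 3.42-fold, whereas *Scd1*, the stearoyl-CoA desaturase gene, fell 2-fold and lay on the limit, under it without Combo replicate 2 (-0.95), Combo replicate 3 (-0.99) or agonist replicate 3 (-0.99). Of 14 endoplasmic reticulum stress genes 3 were called higher and 0 lower, with *Sdf2l1*, a chaperone cofactor gene, rising 2.79-fold and *Calr*, encoding calreticulin, 2.01-fold, under the limit without Combo replicate 3 (a log2 fold change of 0.999). No gene of the lists of fatty acid oxidation, DNA replication, mitosis, MHC class I presentation, incretin and cAMP response or mature B cells was called by edgeR. At an unadjusted p below 0.05, 71 of their 88 list entries differed, and DESeq2 called 0. Over all genes 71.4% passed even Padj below 0.05 without the fold limit, so the count of 71 does not set these lists apart. *Mki67*, a proliferation marker, had a log2 fold change of 0.16.

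Immediate early genes, which respond within minutes to stimulation and to handling, included 5 called higher and 1 lower among 21 (median 0.37). *Egr1* had 1786, 1790 and 1890 normalized counts with the agonist and 6012, 6078 and 6027 with Combo, a 3.32-fold rise. *Jun* rose 2.55-fold. Feedback genes of the Ras-ERK pathway, in which the mutant phosphatase SHP2 acts, had 4 called lower and 0 higher of 14, among them *Dusp4* (-1.56) and *Spry4* (-1.37), inhibitors of that pathway. The call of *Spry4* was lost without Combo replicate 1 (-0.99) or agonist replicate 1 (Padj = 0.0505). *Ptpn11*, which encodes SHP2, had 4836, 4867 and 4762 normalized counts with the agonist and 5418, 5413 and 5453 with Combo, a log2 fold change of 0.17. Reads of mutant and normal alleles are not separated in these counts. *Tyk2*, encoding a JAK family kinase, had a log2 fold change of 0.79, not called.

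Outside the lists, the largest rises besides *Xist* and *Nos2* included *Lipg*, encoding endothelial lipase, with 158, 171 and 165 normalized counts with the agonist and 6988, 7321 and 7046 with Combo (log2 fold change 5.43 ± 0.05 (SE, n = 3 per group), Padj = 7.7e-45). *Prok2*, encoding prokineticin 2, a peptide made by neutrophils, had 86.2, 81.5 and 85.8 normalized counts with the agonist and 1900, 1746 and 1840 with Combo, a 21.6-fold rise. For both, the Combo libraries lay more than an order of magnitude above those with the agonist alone. *Lipg* was also high with Vehicle (mean 11119), whereas *Prok2* was not (93.7). *Upp1*, encoding uridine phosphorylase, rose 7.92-fold, *Fam20c*, a secretory-pathway kinase gene, 8.02-fold, *Tgm1*, a transglutaminase gene, 9.64-fold and *Steap4*, a metalloreductase gene, 8.55-fold. *Klra17*, a lectin-like receptor gene, rose 8.2-fold and *Fignl2* 12.1-fold. Means with Vehicle and Combo were 2664 and 1416 for *Upp1*, 968 and 1152 for *Fam20c*, and 897 and 807 for *Tgm1*. Vehicle was lower for *Steap4* (93.2 against 1228), *Klra17* (258 against 613) and *Fignl2* (8.43 against 150).

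The largest fall was in *Tex11*, an X-linked gene known for its role in meiosis, with 227, 279.6 and 240.2 normalized counts with the agonist and 0, 0 and 1.04 with Combo, at least 79.5-fold lower against a floor of 3 counts per library. Its level was 67.2 with Vehicle and 11.2 in WT recipients. Besides the Y-linked genes, the others of the 10 largest falls were *Trnp1* (-3.38), X-linked *Xlr* (-2.74), *Mmp12* (-2.65), described above, *Fam213a* (-2.62) and *Hdgfrp3* (-2.61). *Fam213a*, encoding a peroxiredoxin-like protein, was the most abundant of these, with 3983, 3927 and 3955 normalized counts with the agonist and 616, 677 and 642 with Combo. *Zbtb46*, a dendritic cell transcription factor that erythroid progenitors and endothelium also express, fell 3.9-fold, and it was the only called gene of 11 dendritic cell markers.

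**Figure D4:**
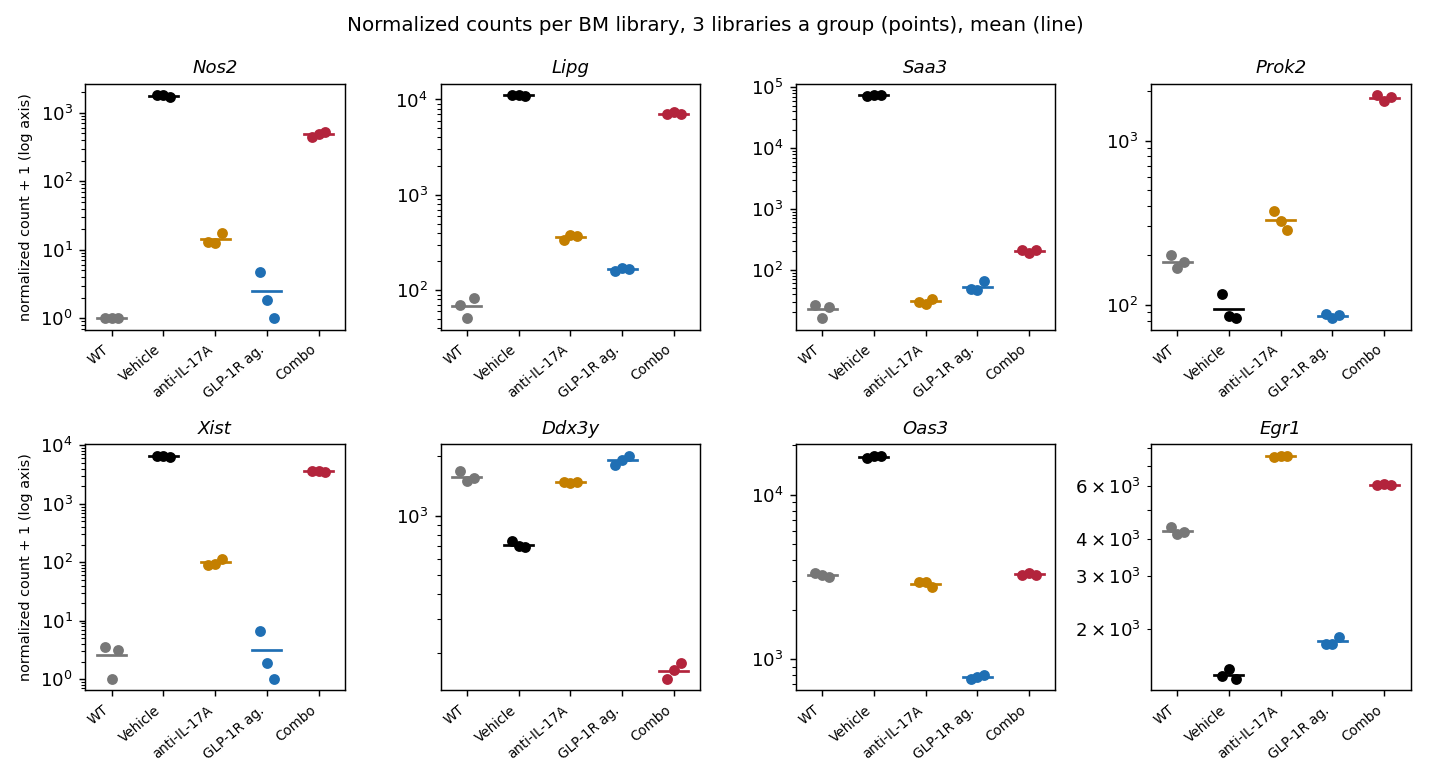
Normalized counts plus 1 (log axis) of 8 genes in each BM library of the 5 groups, with a line at the mean of 3 libraries. *Nos2*, *Lipg* and *Xist* were high with Vehicle and Combo and low with the agonist alone, while *Prok2* was highest with Combo (mean 1829).

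The antibody's effect with the agonist was set against its effect alone (anti-IL-17A over Vehicle), contrasts that share no library. The antibody alone changed 16.1% of genes, and the difference between the 2 effects was called for 21.1%, 1280 genes with a more positive and 1539 with a more negative effect beside the agonist. Of genes called in both contrasts, 376 moved in the same direction and 288 in opposite ones, which is 37.8% of the genes called with the agonist and 30.9% of those called without it. Across genes, which are not independent replicates, Pearson's r between the log2 fold changes was 0.0709. Sex-linked RNA moved the opposite way in the contrasts as well, with *Xist* at 10.60 with the agonist and -6.05 alone, and this cannot be told apart from the difference of the effects.

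*Saa3*, *Nos2* and *Lipg* fell with the antibody alone (log2 fold changes -11.29, -7.04 and -4.95) and rose when it was added to the agonist. Among type I interferon-stimulated genes, 30 of 30 were called lower with the antibody alone (median -4.35), and the difference was called for 30. Levels were high with Vehicle and low with the agonist alone, as for *Oas1g*, with 6.56, 8.76 and 3.07 normalized counts with the agonist and 30.9, 34.9 and 54.3 with Combo against a mean of 4079 with Vehicle. Erythroid genes also differed, with the difference called for 11 of 11 and a median of 0.61 for the antibody alone. *Egr1* rose in both contrasts (1.73 and 2.41), and the difference was not called. Of 14 late neutrophil genes 4 were called higher with the antibody alone, and the difference was called for 5.

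**Figure D5:**
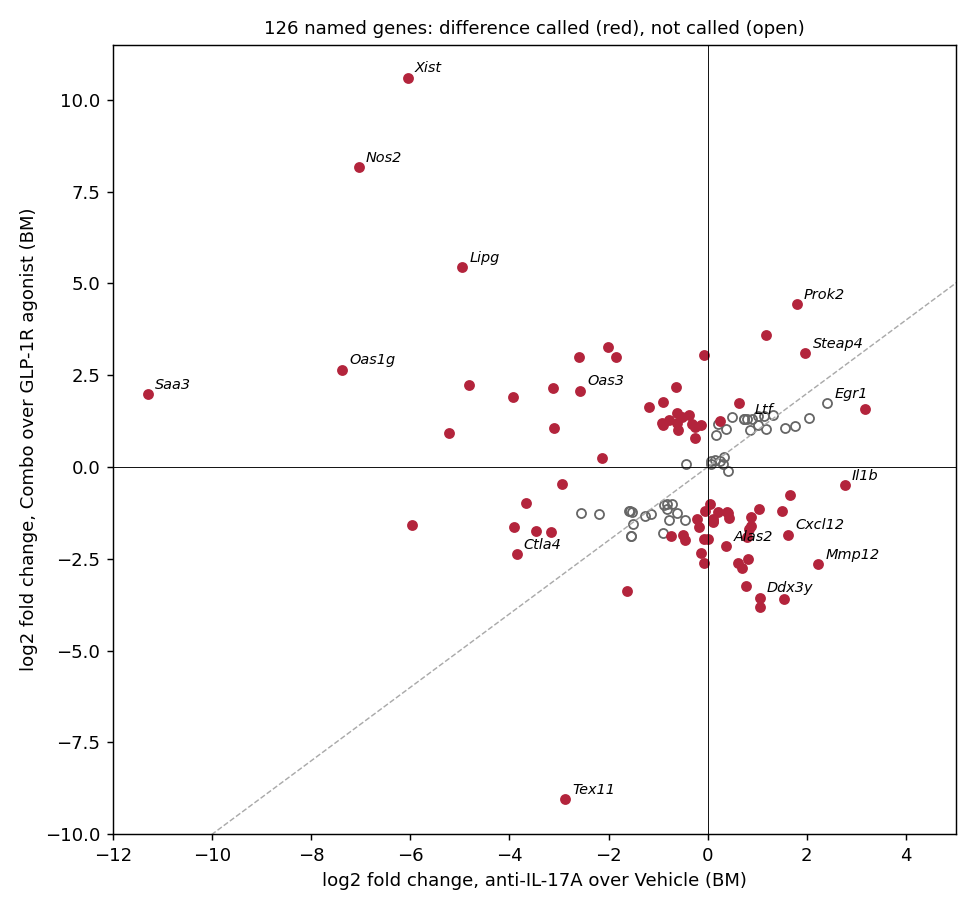
Log2 fold change of 126 named genes in BM on adding the antibody to the agonist (vertical axis) against the antibody alone over Vehicle (horizontal axis), with genes whose difference was called in red and a dashed line of equality. *Saa3*, *Nos2*, *Lipg* and *Xist* lie at upper left, and *Egr1* and *Steap4* at upper right.

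In ATMs, F4/80+ cells sorted from visceral adipose tissue, the same pair of treatments called 18.7% of 17059 genes, 917 higher and 2278 lower with Combo. The difference between tissues was not tested, and replicates in ATMs varied far more (biological coefficient of variation 32.5%). *Xist* had the same split in ATMs, 0 in all agonist libraries and 1082, 1264 and 1041 normalized counts with Combo. Late neutrophil genes were called higher in ATMs for 14 of 14 measured (median 5.51) against a median of 0.90 in BM. These are markers of another cell type than the one sorted, and their part in the other ATM values was not tested. Resident macrophage genes had a median of -0.31 in ATMs and -1.64 in BM. T cell genes had a median of 1.04 in ATMs and -1.24 in BM. Of the genes called in BM and measured in ATMs, 25.9% were called there too, 300 in the same direction and 128 in the opposite one. The 18.7% above includes ATM genes not measured in BM, so it is not the matching background, and the ATM share over genes measured in both tissues was not computed. Conversely, 25.6% of genes called in ATMs and measured in BM were called in BM, beside 1653 of all 13076 genes measured in both tissues.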

How the data were processed

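RNA-seq of BM (15 libraries) and ATMs (15 libraries) was read from 2 tables of counts. According to the study's methods and the submitters' processing notes, reads were mapped by the authors with STAR 2.7.2a on mm10 and assigned to GENCODE M22 genes with featureCounts 2.0.1, ignoring strand and counting a read for every gene it overlaps, so overlapping genes share reads. The deposited values are raw counts. Their smallest BM gene total was 55, so scarce genes had been left out.

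Groups were taken from the labels. Counts were fitted in R 4.3.3 with edgeR 4.0.16: TMM, filterByExpr (which removed 0 BM genes) and 1 robust quasi-likelihood fit per tissue, with 2-sided tests, Benjamini-Hochberg adjustment over all genes and a log2 limit of 1. The SE was taken from the F statistic. Alternatives included DESeq2 1.42.0. The scripts were tested on simulated data. Chromosomes and exon overlap came from GENCODE M21 (GRCm38), and upstream sequences from RefSeq.

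Named genes were the 10 largest called changes in each direction (mean of at least 50 normalized counts, no overlap, predicted genes and antigen-receptor segments left out), up to 4 called members per list or else the most abundant, genes fixed by name (the targets and their receptors, inflammatory and checkpoint genes, *Ptpn11*, *Lepr*, *Xist* and *Ddx3y*), the 5 most abundant called genes and the 5 largest differences of the antibody's effects. Other list members are given as values. Some genes are not reported here. The contrast, members and 37 lists were chosen with earlier results of these data known. Of the deposited sample columns 0 were left unused.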

Additional observations from a re-analysis of the deposited data

Results flagged for a closer look

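For 86 genes described above, the antibody's log2 fold change with the agonist differed from that without it, by edgeR's test of the difference at the same Padj and fold limits. Over all genes the difference was called for 21.1%. The genes described were chosen in part for large changes or large differences, so their number is no measure of how common a difference is. No sample group was large enough to test single libraries as outliers. A positive difference, a more positive effect with the agonist present, was found in the genes that follow, each with the difference in log2 fold change. Differences above 4 were those of *Xist* (16.65), *Nos2* (15.21), *Saa3* (13.27), *Lipg* (10.38), *Oas1g* (10.03), *Oas1a* (7.04), *Ccl2* (6.14), *Isg15* (6.09), *Oas2* (5.85), *Upp1* (5.59), *Oasl1* (5.45), *Tgm1* (5.29), *Oasl2* (5.26), *Rtp4* (5.20), *Fam20c* (4.85), *Oas3* (4.65) and *Mx2* (4.61). Smaller positive differences were those of *Klra17* (3.10), *Ear1* (2.82), *Dgat2* (2.68), *Cd274* (2.68), *Rsad2* (2.65), *Prok2* (2.64), *Il17f* (2.48), *Fignl2* (2.42), *B2m* (2.39), *Gbp4* (2.26), *Sdf2l1* (2.10), *Aldoa* (2.06), *Lcn2* (2.05), *Jun* (1.87), *Serpinb1a* (1.79), *Il6* (1.73), *Calr* (1.61), *Ldha* (1.496), *Ctla4* (1.48), *S100a8* (1.41), *Pdcd1* (1.38), *Pkm* (1.34), *Ctsg* (1.27), *S100a9* (1.14), *Steap4* (1.13), *Hk3* (1.11), *Tyk2* (1.04), *Kdm5c* (1.03) and *Cd177* (1.01).

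A negative difference was found in the following genes. Differences beyond -2.5 were those of *Tex11* (-6.17), *Uty* (-5.13), *Mmp12* (-4.88), *Eif2s3y* (-4.86), *Ddx3y* (-4.61), *Kdm5d* (-4.02), *Cxcl12* (-3.47), *Xlr* (-3.44), *Fabp4* (-3.30), *Il1b* (-3.25), *Fam213a* (-3.22), *Cd5l* (-2.70), *Lepr* (-2.70), *Hdgfrp3* (-2.54), *Alas2* (-2.54) and *Adipoq* (-2.51). Smaller negative differences were those of *Cd96* (-2.44), *Sdc1* (-2.25), *Ppbp* (-2.21), *Jchain* (-2.19), *Zbtb46* (-1.89), *Epor* (-1.83), *Col1a1* (-1.76), *Trnp1* (-1.75), *Klf1* (-1.68), *Klrb1c* (-1.67), *Hemgn* (-1.65), *Ptgs2* (-1.59), *Il7r* (-1.56), *Clec1b* (-1.53), *Il1r1* (-1.53), *Pf4* (-1.503), *Cd3d* (-1.46), *Car1* (-1.42), *Tubb1* (-1.36), *Cd4* (-1.24), *Gata1* (-1.17), *Rhag* (-1.15), *C1qc* (-1.13) and *Ciita* (-1.06). *Xist* and the Y-linked genes *Ddx3y*, *Eif2s3y*, *Uty* and *Kdm5d* are among these genes, and sex of the cells cannot be told apart from treatment in them or in the others. The values of *Xist*, *Nos2* and *Tex11* depend on the prior count of the fit, since a group compared was near 0 for each.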

How the results depend on the processing

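The counts of called genes are given in the order Combo against the agonist in BM, the difference of the antibody's effects in BM, the antibody alone in BM, and Combo against the agonist in ATMs. Without a fold limit they were 9529, 9162, 9750 and 6788, against 1757, 2819, 2151 and 3195 as reported. With glmTreat against a log2 fold change of 1 they were 737, 1750, 1244 and 1838, and with at least 10 counts in every library 1208, 2155, 1428 and 1592, where fewer genes were tested. Leaving out 1 library gave 1698 to 1765, 2763 to 2801, 2104 to 2123 and 2950 to 2997. With DESeq2 the counts were 1755, 2825, 2143 and 3437. On autosomal genes alone, an alternative chosen after the data were seen, the 3 BM counts were 1638, 2642 and 2021. The replicate block gave 1755, 2810, 2154 and 3057. Same-numbered Combo and agonist libraries did not deviate together (correlations of 0.003, 0.005 and 0.008), which does not show whether they were paired in the experiment. For Vehicle and Combo the correlations were also small (0.040, 0.013 and 0.044), but the same number matched best each time.

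Over gene lists and named genes in BM, 2852 alternative values kept their side of the threshold or stayed within 1.5 times the count and none changed direction. Of the rest, 61 list counts moved, 53 gene values were no longer called and 31 became called, most of them with no fold limit or with glmTreat. Depth limits scarce genes, such as *Il17a*, *Il17f* and *Ifng*. Sex of the cells cannot be told apart from treatment.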
